A study of Zea mays with 12 samples.

Results

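Among 37385 maize genes listed for roots under shortage of single nutrients, 3 were examined: cl35113_1 (gene 100193704, RefSeq symbol LOC100193704), LOC100501893 and LOC100191817. The deposited tables describe cl35113_1 and LOC100501893 as SPX domain-containing membrane proteins, and LOC100191817 as putative glycerol-3-phosphate transporter 4. They were picked by identifier with their differences between deficient and control roots already known. Their levels and folds are therefore given as a description, with no test. All 3 were among the 24311 genes that passed the expression minimum described below.

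The roots were of maize line DengHai605 at an age of 40 days, and their total RNA was sequenced in 12 libraries, 3 in each of 4 groups. Control plants had normal supplies of potassium (K), nitrogen (N) and phosphorus (P), and every other group was short of 1 of these nutrients: K deficiency, N deficiency or P deficiency. All groups share the line, the tissue and the age. Within a group the libraries are labelled as replicates 1_3, 4_6 and 7_9. The labels call DengHai605 an inbred line, and they give neither how long or how strongly a nutrient was withheld nor whether libraries came from separate plants, so p-values measure the spread between libraries, which may be technical.

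Plants take up phosphorus as phosphate and keep a store of it in the vacuole. SPX domains bind inositol pyrophosphates, small molecules that report how much phosphate a cell holds, and they occur in proteins that regulate or carry phosphate. In Arabidopsis and rice, membrane proteins that join an SPX domain to a transporter domain move phosphate across the vacuolar membrane. Glycerol-3-phosphate links sugar breakdown to the synthesis of membrane lipids, and it is also released when phospholipids are dismantled. Proteins of the glycerol-3-phosphate transporter family carry such phosphate esters across membranes, and in Arabidopsis some members of the family respond to phosphate starvation.

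Expression is given as FPKM, the number of fragments per kilobase of transcript after scaling to library size. Levels of different genes compare only as far as the transcript length assigned to each is right. Recovered reads are counts before such scaling. In the control each FPKM stood for a mean of 194 reads of cl35113_1, 71.2 of LOC100501893 and 41.75 of LOC100191817. For cl35113_1 this ran from 131.6 in P deficiency replicate 7_9 to 214.6 in K deficiency replicate 7_9. For LOC100191817 it ran from 32.2 in P deficiency replicate 4_6 to 59.1 in N deficiency replicate 1_3, so folds by FPKM and by reads differ. Depth, from whole reads recovered out of the deposited group means, was 15790050 to 18465979 reads per library. Libraries of one group correlated across genes with Pearson's r of 0.959 to 0.98, and libraries of different groups with 0.873 to 0.958; genes are no independent replicates. The summed FPKM of 7 root markers, 6 of them at a mean of at least 0.5 FPKM, was 240 to 449 in control libraries and 169 to 1047 in deficient ones, so root genes were present throughout. In bulk RNA, fewer cells of a type and less RNA per cell cannot be told apart.

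Each deficiency had its own pattern over the 3 genes. LOC100191817 was lower than the control under every deficiency, by 7.65-fold to 45.8-fold. The SPX gene cl35113_1 was also lower under every deficiency, with its smallest fold under N deficiency and its largest under P deficiency. The other SPX gene, LOC100501893, was close to the control under K deficiency, moderately lower under P deficiency and 26.2-fold lower under N deficiency. Each count of genes whose libraries do not overlap is set beside the share of all tested genes that meet the same condition. Libraries of 2 of the 3 genes lay wholly below the control under K deficiency, which held for 11.1% of all tested genes. Under N deficiency this was so for 3 of 3 genes against 16.5% of tested genes, and under P deficiency for 3 of 3 against 18.0%. Since these contrasts chose the genes, nothing is read from the counts.

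**Figure D1:**
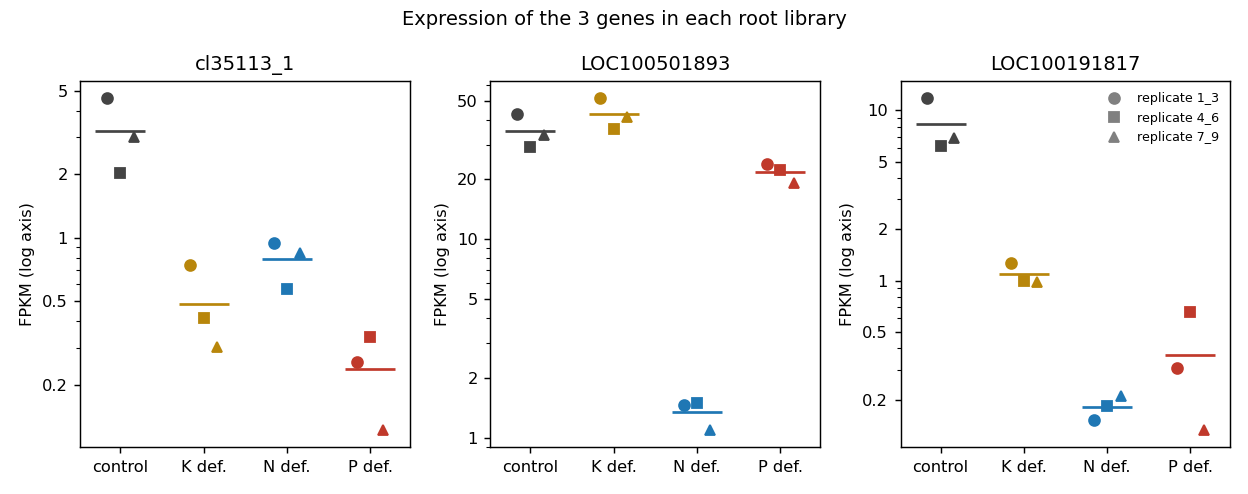
FPKM on a log axis of cl35113_1, LOC100501893 and LOC100191817 in each of the 12 root libraries. Points are libraries, with shape for the replicate label, and horizontal lines are the means of 3 libraries; LOC100501893 drops to between 1.09 and 1.49 FPKM in N deficiency, while LOC100191817 is at 1.28 FPKM or less in every deficient library.

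The SPX gene cl35113_1 was the weakest of the 3 in control roots. Its FPKM in control replicates 1_3, 4_6 and 7_9 was 4.62, 2.03 and 3.02. In K deficiency the values in the same order were 0.743, 0.414 and 0.303, and in N deficiency they were 0.946, 0.572 and 0.845. In P deficiency they were 0.256, 0.338 and 0.122. All 9 deficient libraries were below the lowest control library. The lowest library of all was P deficiency replicate 7_9.

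As means ± SD (n = 3), cl35113_1 stood at 3.22 ± 1.31 FPKM in the control, 0.788 ± 0.193 in N deficiency, 0.487 ± 0.229 in K deficiency and 0.239 ± 0.109 in P deficiency. Neighbours in this order did not all separate: N and K deficiency overlapped, and so did K and P deficiency. N and P deficiency did not, and the mean was 3.30 times higher in N deficiency. Against the control, cl35113_1 was 13.5-fold lower in P deficiency, 6.63-fold lower in K deficiency and 4.09-fold lower in N deficiency. Recovered reads put numbers on the precision: 384 to 919 reads per control library, 16 to 61 in P deficiency, 65 to 139 in K deficiency and 97 to 155 in N deficiency.

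LOC100501893 had the highest FPKM of the 3. Its control FPKM in replicates 1_3, 4_6 and 7_9 was 42.9, 29.0 and 33.6, and in K deficiency it was 51.7, 35.9 and 41.4. In P deficiency the values were 23.9, 22.4 and 19.2. In N deficiency they were 1.46, 1.49 and 1.09. N deficiency thus stood apart from all the other libraries, P deficiency lay below every control library, and K deficiency overlapped the control.

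The means of LOC100501893 were 43.01 ± 8.0 FPKM in K deficiency, 35.2 ± 7.09 in the control, 21.8 ± 2.37 in P deficiency and 1.34 ± 0.222 in N deficiency (SD, n = 3). Relative to the control this SPX gene was 26.2-fold lower in N deficiency and 1.61-fold lower in P deficiency, and its mean in K deficiency was 1.22 times that of the control. The low level in N deficiency rests on 73 to 104 reads per library, against 2087 to 3072 in the control, 2420 to 3553 in K deficiency and 1168 to 1597 in P deficiency.

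LOC100191817, the glycerol-3-phosphate transporter gene, was at 11.9, 6.21 and 6.89 FPKM in control replicates 1_3, 4_6 and 7_9. In K deficiency it was at 1.28, 1.0 and 0.988 FPKM. In N deficiency it was at 0.152, 0.183 and 0.210 FPKM, and in P deficiency at 0.305, 0.653 and 0.132. The 9 deficient libraries were all below the control. K deficiency lay between the control and the other deficiencies, and the P deficiency libraries spread over the whole range of the N deficiency ones and beyond it on both sides.

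The transporter gene's means were 8.33 ± 3.10 FPKM in the control, 1.09 ± 0.164 under K, 0.364 ± 0.265 under P and 0.182 ± 0.029 under N deficiency (SD, n = 3). It was 7.65-fold lower than the control in K deficiency, 22.9-fold lower in P deficiency and 45.8-fold lower in N deficiency. Without P deficiency replicate 4_6 the P deficiency value became 38.1-fold. By the authors' deposited mean normalized counts, its ratio to the control was 0.0253 in N deficiency and 0.0369 in P deficiency. By mean FPKM these ratios were 0.0218 and 0.0436, further apart. Reads were few at this end: 7 to 10 per library and 26 in all in N deficiency, and 5 to 21 per library and 37 in all in P deficiency, against 252 to 513 per control library. The order of N and P deficiency was not detectable at this depth.

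Setting the deficiencies against each other, without the control, shows where the 3 genes part. Between N and P deficiency, LOC100501893 was 16.2-fold lower in N deficiency and cl35113_1 was 3.30 times higher there, each without overlap. Over all tested genes, 17.5% lay wholly lower and 16.1% wholly higher in N than in P deficiency. The transporter gene LOC100191817 overlapped between these groups, with a mean 2.0-fold lower in N deficiency and only 1.20-fold lower without P deficiency replicate 4_6. Between N and K deficiency, LOC100501893 was 32.0-fold lower and LOC100191817 5.99-fold lower in N deficiency, while cl35113_1 overlapped. Those 2 of 3 genes compare with 17.1% of all tested genes that were wholly lower. Between P and K deficiency, LOC100191817 was 3.0-fold lower in P deficiency and LOC100501893 1.97-fold lower. These 2 did not overlap, against 18.1% of tested genes, and cl35113_1 did. Without P deficiency replicate 4_6 the transporter gene's fold here was 4.98. The genes were picked with their differences from the control known, so nothing is read from these counts between deficiencies either.

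Both SPX genes carry the same description, yet their ratio was not fixed. In control libraries the FPKM of LOC100501893 was 9.28 to 14.3 times that of cl35113_1. In K deficiency the ratio was 69.6 to 137 and in P deficiency 66.1 to 158, since cl35113_1 was far lower and LOC100501893 was not. In N deficiency it was 1.29 to 2.60, so the SPX genes were closer in FPKM there than in any other group. The ratio of the transporter gene to cl35113_1 was 2.28 to 3.06 in the control and 1.72 to 3.26 in K deficiency, which overlap. It was lower in P deficiency, at 1.09 to 1.93, where the highest library lies inside the K deficiency range, and lower still in N deficiency, at 0.161 to 0.320.

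Over the 12 libraries, Pearson's r of log2(FPKM + 1) was 0.897 between cl35113_1 and LOC100191817, 0.555 between LOC100501893 and LOC100191817, and 0.172 between the SPX genes. These points share their groups, their library and its scaling, so the values only describe. After the group means were removed the same r values were 0.847, 0.717 and 0.754. All 3 genes were highest in replicate 1_3 and lowest in 4_6 among the control libraries, and all 3 were highest in replicate 1_3 of K deficiency. The other groups had no such common order. In N deficiency the highest replicate was 1_3 for cl35113_1, 4_6 for LOC100501893 and 7_9 for LOC100191817. In P deficiency it was 4_6 for cl35113_1 and LOC100191817, and 1_3 for LOC100501893.

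Genes with the most similar pattern were ranked by Pearson's r over the 12 libraries, among 9931 described genes (9930 for LOC100501893) whose mean FPKM reached the median of all tested genes. For cl35113_1 they were LOC100272896 (hypothetical protein, r = 0.961), LOC100383861 and LOC100279750 (uncharacterized, r = 0.953 each), LOC100383370 (a RING zinc finger protein, r = 0.947) and LOC103637666 (a homeobox-leucine zipper protein of the HOX1 type, r = 0.945). LOC100383861 stood at 32.9 ± 6.72 FPKM in the control and 8.85 ± 0.37 in P deficiency, a smaller fold than that of cl35113_1. For LOC100501893 they were LOC100273759 (uncharacterized, r = 0.992), LOC100285056 (peroxidase 2, r = 0.987), LOC100273558 (uncharacterized, r = 0.98), LOC100283794 (a jasmonate-induced protein, r = 0.98) and LOC100274454 (an ETHYLENE INSENSITIVE 3-like protein, a type of transcription factor in ethylene signalling, r = 0.976). LOC100283794 was at 296 ± 35.1 FPKM in the control and at 7.68 ± 4.78 in N deficiency.

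For LOC100191817 the closest genes were LOC100274199 (uncharacterized, r = 0.982), LOC100280779 (succinate semialdehyde dehydrogenase, r = 0.981), LOC100286328 (embryonic protein DC-8, r = 0.98), pco104637 (uncharacterized, r = 0.98) and LOC100191982 (a phosphofructokinase, an enzyme of glycolysis, r = 0.979). LOC100286328 was at 43.9 ± 15.5 FPKM in the control and at 1.96 ± 0.53 in K deficiency, a larger fold than that of the transporter gene. Of the 15 genes, 0 are on the phosphate lists described below. Besides the genes examined here, those lists hold only 81 of the 24311 tested genes, so nothing is read from this count. Only 2 of the 15 were found again by Spearman's rho, 7 with a pseudocount of 0.1 and 0 after group means were removed, so the ranking is tied to its measure.

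**Figure D2:**
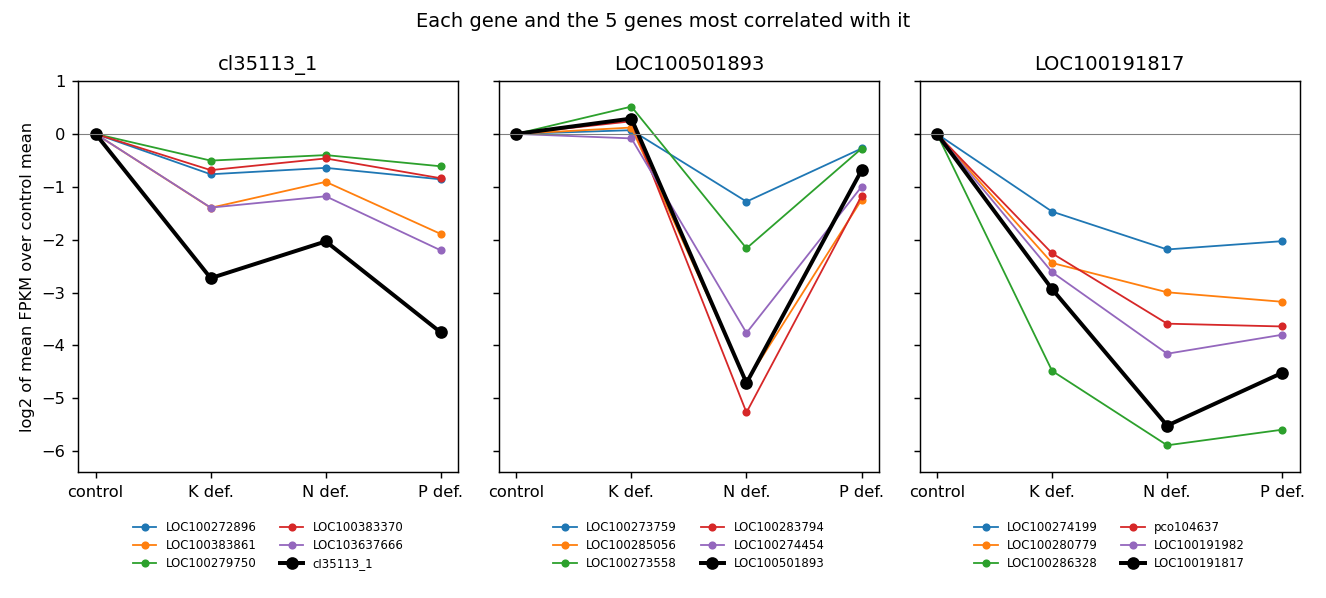
Mean FPKM of each group over the control mean, on a log2 scale, for each gene (black) and the 5 genes most correlated with it (colours), n = 3 libraries per point. All lines in the panel of LOC100501893 are lowest in N deficiency, while those of cl35113_1 and LOC100191817 lie below the control in all 3 deficiencies. The genes were picked for their correlation in these libraries, so a shared shape follows from the choice. The depths of the lines differ.

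Other transcripts stood highest in the control as cl35113_1 and LOC100191817 did. The summed FPKM of 41 seed and late embryogenesis genes, 12 of them at a mean of at least 0.5 FPKM, was 1419 to 2346 in control libraries, 440 to 505 in P deficiency, 489 to 582 in K deficiency and 418 to 448 in N deficiency, with 20 to 23 of the 41 at 0 in all libraries of a group. Of those 12, 9 had a lower mean than the control in P and in K deficiency and 10 in N deficiency, while magi7438 went from 57.1 in the control to 112 in K deficiency. Late embryogenesis abundant proteins also occur in roots that lose water. A list of 19 genes of green tissue, 7 of them at that level, summed to 18.9 to 36.7 FPKM in the control and 6.25 to 18.6 in deficient libraries. LOC100191715 made up most of the control sum. Without it the other 6 at that level summed to a mean of 8.08 FPKM in the control, 7.64 in K, 4.98 in N and 5.38 in P deficiency, and 2, 2 and 1 of the 7 had a higher mean than the control in K, N and P deficiency. The part of either in the values of the 3 genes was not tested.

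The third gene described as an SPX domain-containing membrane protein, LOC100501338, was not among the chosen genes and was tested. It is the one left when the others were picked with their responses known. Its lack of calls may be shaped by that choice. Its FPKM in replicates 1_3, 4_6 and 7_9 was 10.5, 20.3 and 11.1 in the control, and 9.14, 14.2 and 10.95 in K deficiency. It was 15.6, 15.9 and 23.8 in N deficiency, against 11.7, 15.7 and 14.4 in P deficiency. All groups overlapped the control. No comparison passed in limma: its adjusted p was 0.639, 0.298 and 0.912 against the control for K, N and P deficiency, and 0.149 to 0.5 between deficiencies.

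By FPKM, the make-up of this group of 3 membrane proteins differed between conditions, which is given as a description with no test. LOC100501893 held 66.9 ± 9.22% of their summed FPKM in the control, 60.6 ± 5.26% in P deficiency and 77.9 ± 6.44% in K deficiency, but 6.87 ± 2.29% in N deficiency. There LOC100501338 held 89.2 ± 2.98%, against 27.0 ± 11.2% in the control. The share of cl35113_1 was 6.08 ± 2.02% in the control, 3.91 ± 1.16% in N deficiency, 0.867 ± 0.318% in K deficiency and 0.652 ± 0.266% in P deficiency (SD, n = 3). The sum itself was 52.4 ± 5.25 FPKM in the control, 36.0 ± 2.35 in P deficiency, 54.9 ± 5.87 in K deficiency and 20.6 ± 4.47 in N deficiency. How the authors assigned reads that similar genes share is not given in the sources used here.

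**Figure D3:**
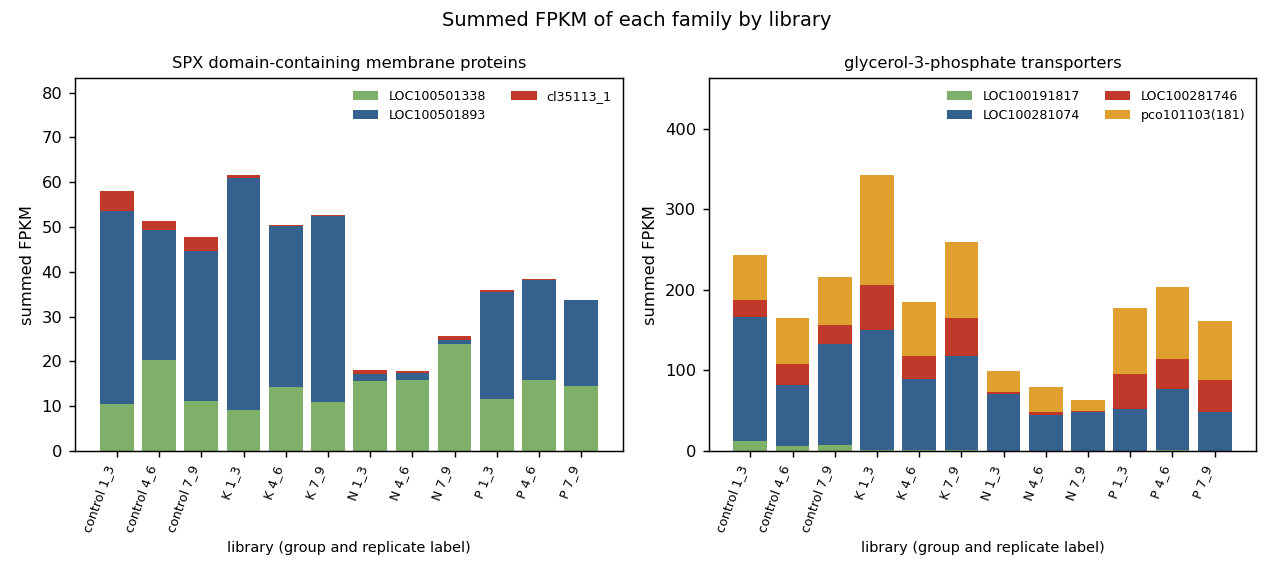
Summed FPKM per library of the SPX domain-containing membrane protein genes (left) and the glycerol-3-phosphate transporter genes (right), stacked by gene, for replicates 1_3, 4_6 and 7_9 of each group. On the left LOC100501893 makes up most of each bar except in N deficiency, where LOC100501338 holds 89.2% on average; on the right LOC100191817 is a thin layer, 3.94% in the control and under 0.5% in every deficiency on average.

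The other SPX genes lack the membrane description. LOC100216718, described as SPX domain-containing protein 4 (in rice a soluble protein that holds back the phosphate starvation response), rose 2.26-fold in P deficiency, from 9.89 ± 0.686 to 22.3 ± 7.53 FPKM (limma adjusted p = 0.0117), the reverse of both SPX genes above. The call was lost without control replicate 1_3 (adjusted p = 0.0504), and the adjusted p ranged from 0.00401 to 0.0504 over the alternatives. LOC103640531, an SPX and EXS domain protein, was at 15.2 to 22.6 FPKM in all libraries and passed in no comparison. Of the 3 SPX genes that were tested, limma called 0 in K and N deficiency, with 0 at an unadjusted p under 0.05 and 0 by voom.

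Of the glycerol-3-phosphate transporter genes, LOC100191817 had by far the lowest FPKM. Its share of their summed FPKM was 3.94 ± 0.86% in the control, 0.192 ± 0.121% in P deficiency, 0.432 ± 0.0955% in K deficiency and 0.241 ± 0.0905% in N deficiency. The sums were 208 ± 39.7, 180.5 ± 21.2, 262 ± 79.1 and 80.1 ± 18.0 FPKM in the same order. LOC100191817 was a small part of the family's summed FPKM in every group, whether it was at its highest or its lowest.

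The other transporter genes passed mainly in N deficiency. LOC100281746, a glycerol-3-phosphate permease, was at 21.6, 26.6 and 23.3 FPKM in control replicates 1_3, 4_6 and 7_9 and at 2.28, 3.56 and 1.48 in N deficiency, a 9.79-fold fall (limma adjusted p = 1.9e-05). In K deficiency it was at 55.9, 28.5 and 47.2 FPKM (adjusted p = 0.0757, 0.0203 to 0.239 over the alternatives) and in P deficiency at 44.2, 37.1 and 39.7 (adjusted p = 0.0557, 0.0196 to 0.163). All 6 of these libraries were above the control, without passing in the chosen fit. It was 16.5-fold lower in N than in P deficiency and 18.0-fold lower in N than in K deficiency, both passing. LOC100191817 differs in that its K and P deficiency libraries were below the control too.

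pco101103(181), described as putative glycerol-3-phosphate transporter 1, fell 2.50-fold in N deficiency, from 57.9 ± 2.02 to 23.1 ± 8.73 FPKM (limma adjusted p = 0.00723), and was 3.52-fold lower in N than in P deficiency (adjusted p = 0.00322). Its libraries lay above the control ones (56.1 to 60.1 FPKM) in K deficiency, at 66.0 to 136, and in P deficiency, at 73.0 to 89.7. Neither difference passed, with adjusted p over the alternatives from 0.0869 to 0.458 in K and from 0.06 to 0.409 in P deficiency. LOC100281074, another permease and the most abundant of the family, fell 2.17-fold in N deficiency (adjusted p = 0.0259) and 2.02-fold in P deficiency (adjusted p = 0.0361). Its control libraries ran from 75.0 to 154 FPKM, and both calls were lost under several alternatives, with adjusted p from 0.00731 to 0.112 in N deficiency and from 0.0129 to 0.144 in P deficiency. Leaving out control replicate 1_3 or 7_9 ended each of them.

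**Figure D4:**
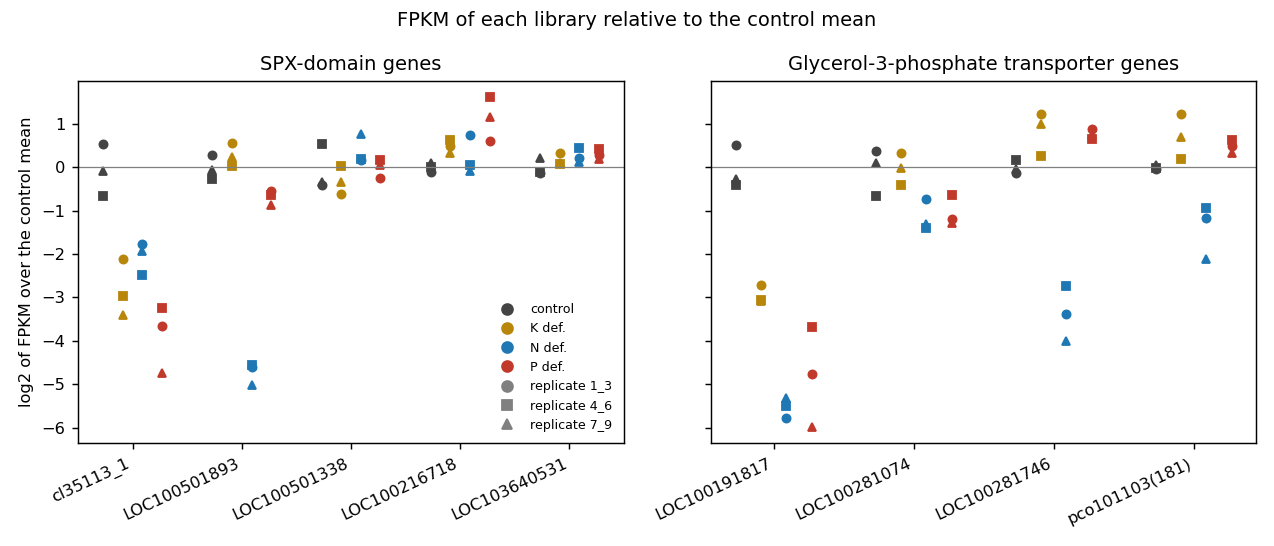
FPKM of each library over the gene's control mean, on a log2 scale, for SPX-domain genes (left) and glycerol-3-phosphate transporter genes (right). Points are libraries, with colour for the group and shape for the replicate label; LOC100501338 and LOC103640531 stay within 1 of the control mean, and LOC100281746 is low in N deficiency alone while LOC100191817 is low in all 3 deficiencies.

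Around the 3 genes, 81 tested genes from 7 lists of the phosphate pathway served as context. The tests are limma with Benjamini-Hochberg adjustment at 0.05 over all tested genes. The shares of all tested genes given here are also the background for the counts of each list below. In P deficiency 26 of the 81 rose and 11 fell, with a median log2 difference of 0.325 against 0.077 over all tested genes, of which 13.0% rose and 10.4% fell. The summed FPKM of 10 histone and proliferating cell nuclear antigen genes, taken as markers of dividing cells, was also higher there. They include histone H3.3 (LOC103627323), which need not mark dividing cells. The sum was 880 to 1401 against 512 to 709 in the control without overlap, and 9 of the 10 had a higher mean. In K deficiency that sum was 629 to 706 and in N deficiency 593 to 951, both overlapping the control. Of the 10 markers, 8 had a higher mean than the control in K deficiency and 9 in N deficiency. The part of dividing cells in these counts was not tested. In N deficiency 9 rose and 21 fell, with a median of -0.009 against 0.041, while 9.63% of all tested genes rose and 9.33% fell. In K deficiency 9 rose and 3 fell, with a median of 0.294 against 0.072, while 4.83% and 3.89% of all tested genes did. Set against each other, N deficiency had 7 of the 81 higher and 24 lower than P deficiency (5.8% and 5.47% of all tested genes), and 5 higher and 25 lower than K deficiency (3.88% and 5.93%). P deficiency had 4 higher and 5 lower than K deficiency (2.95% and 6.29%).

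Some of these counts hang on single libraries. In K deficiency 1 gene rose without control replicate 1_3, 5 without control replicate 4_6, and, of the K deficiency replicates, 0 without 1_3 and 3 without 7_9. Only 1 fell there when control replicate 1_3 or K deficiency replicate 4_6 or 1_3 was left out. In N deficiency 2 rose without control replicate 1_3 or N deficiency replicate 4_6. In P deficiency 16 rose without control replicate 1_3. The count that fell there was 4 without control replicate 1_3 or P deficiency replicate 7_9, 6 without P deficiency replicate 1_3, and 7 without control replicate 4_6, control replicate 7_9 or P deficiency replicate 4_6.

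Phosphate transporters carry inorganic phosphate across membranes. The list of 12 holds 3 mitochondrial carriers, which take it into mitochondria, and 9 other genes. These are described as phosphate transporters or cotransporters without the word mitochondrial, except Pht1%3B2, which has no description and was listed by its name. In P deficiency 9 of the 12 rose, namely all 3 mitochondrial carriers and 6 of the 9 others, and 0 fell in limma, with 0 lower at an unadjusted p under 0.05 and 0 by voom. The 3 genes chosen here were below the control in that deficiency. That count was 4 without control replicate 1_3 and 5 without P deficiency replicate 7_9. LOC732718 (inorganic phosphate transporter 5) rose 3.98-fold (adjusted p = 0.000743) and LOC100502494 (phosphate transporter protein9) 5.13-fold (adjusted p = 0.00142), or 7.86-fold without control replicate 7_9. In N deficiency 3 of the 12, none of them a mitochondrial carrier, fell and 0 rose in limma, with 3 higher at an unadjusted p under 0.05 and 2 by voom. Among them pht2 fell 4.36-fold (adjusted p = 0.000286) and LOC732717 7.33-fold (adjusted p = 0.000301). In K deficiency 3 rose and 0 fell (0 lower at an unadjusted p under 0.05 in limma and 0 by voom), and the count that rose was 0 when control replicate 1_3 or K deficiency replicate 7_9 or 1_3 was left out, and 1 without control replicate 4_6.

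One of the 9, pht1-6, is known as a gene induced in mycorrhizal roots. It was at 6.82 to 21.9 FPKM in the control, 34.2 to 502 in P deficiency, 32.9 to 147 in K deficiency and 13.3 to 49.7 in N deficiency. Of the 3 deficiencies it passed against the control in P deficiency alone (limma adjusted p = 0.0172), where it was higher 19.4-fold, or 11.6-fold without P deficiency replicate 4_6. This call was lost without control replicate 1_3 (adjusted p = 0.0756) and without P deficiency replicate 4_6 (0.0506) or 7_9 (0.0621), and the adjusted p ranged from 0.00179 to 0.0756 over the alternatives in limma. In the authors' deposited table its adjusted p was 0.0681. The part of mycorrhizal roots in the values above was not tested.

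Glycerophosphodiester phosphodiesterases split glycerophosphodiesters, which come from phospholipids, and release glycerol-3-phosphate, the substrate of the family of LOC100191817. Some genes of this list are described as GDPDL3, and whether they share this activity was not tested. In N deficiency 3 of 7 fell and 0 rose in limma (1 was higher at an unadjusted p under 0.05 and 0 by voom), and in P deficiency 2 rose and 1 fell. LOC100383215, described as GDPD2, fell 20.03-fold in N deficiency (adjusted p = 3.91e-07) and rose 2.71-fold in P deficiency (adjusted p = 0.000539). LOC100191201 fell 7.52-fold in N deficiency (adjusted p = 1.93e-05) and rose 2.01-fold in P deficiency (adjusted p = 0.0172), the latter lost without control replicate 1_3 (adjusted p = 0.0747). LOC100191817 itself was below the control in both deficiencies. In P deficiency 1 of the 7 rose without control replicate 1_3, and 0 fell without control replicate 1_3 or 7_9 or P deficiency replicate 4_6 or 7_9. In K deficiency limma called 0 in either direction, with 0 at an unadjusted p under 0.05 and 0 by voom.

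Among 14 tested genes of glycerol-3-phosphate transport and glycerol metabolism other than LOC100191817, 3 rose and 3 fell in N deficiency, 1 rose and 2 fell in P deficiency, and 1 rose and 2 fell in K deficiency. The P deficiency counts are 7.14% and 14.3% of the list, near the 13.0% and 10.4% of all tested genes. The shares of all tested genes were 9.63% and 9.33% in N deficiency and 4.83% and 3.89% in K deficiency. The glycerol-3-phosphate dehydrogenase LOC100273065 fell 1.88-fold in P deficiency (adjusted p = 0.000742), while another dehydrogenase, LOC100284124, rose 11.0-fold there (adjusted p = 0.00799), or 7.07-fold without P deficiency replicate 4_6. LOC100281051, described as glycerol-3-phosphate acyltransferase 8, rose 3.95-fold in N deficiency (adjusted p = 0.0013). In N deficiency 1 of the 14 rose without control replicate 1_3 or N deficiency replicate 4_6. In P deficiency 1 fell without control replicate 1_3 or 7_9 or P deficiency replicate 1_3 or 7_9. In K deficiency 0 rose without any 1 control library or without K deficiency replicate 1_3, and 0 fell without control replicate 1_3 or K deficiency replicate 1_3 or 4_6.

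Of 19 genes of membrane lipid remodelling, which frees phosphate from phospholipids, 5 fell and 0 rose in N deficiency (1 higher at an unadjusted p under 0.05 in limma and 0 by voom), 5 rose and 5 fell in P deficiency, and 2 rose and 0 fell in K deficiency (1 lower at an unadjusted p under 0.05 and 1 by voom). In P deficiency 3 rose without control replicate 4_6 or P deficiency replicate 1_3 or 4_6, and 2 or 3 fell without any 1 library. In K deficiency 0 rose without replicate 1_3 of either group, and 1 without K deficiency replicate 7_9. LOC100383973, a monogalactosyldiacylglycerol synthase, fell 33.6-fold in N deficiency (adjusted p = 6.26e-06), or 59.97-fold without N deficiency replicate 1_3, and rose 4.74-fold in P deficiency (adjusted p = 0.000351). Of 21 genes with acid phosphatase in their description, 4 rose and 6 fell in N deficiency. In P deficiency 7 rose and 2 fell, and in K deficiency 2 rose and 1 fell. Some of the 21 are described only as acid phosphatase/vanadium-dependent haloperoxidase related, and LOC100382011 as putatively inactive. The shares that fell in P and K deficiency, 9.52% and 4.76%, were close to the 10.4% and 3.89% of all tested genes. In N deficiency 0 rose without control replicate 1_3 or N deficiency replicate 4_6 and 2 without control replicate 4_6. In P deficiency 1 fell when any library but control replicate 7_9 was left out, and in K deficiency 0 rose without replicate 1_3 of either group and 1 without K deficiency replicate 7_9. The purple acid phosphatase LOC100272946 fell 27.0-fold in N deficiency (adjusted p = 3.91e-07), a fold near that of LOC100501893. Among 5 phosphate signalling genes, LOC100502171, a ubiquitin-conjugating enzyme E2 24 of the type that in Arabidopsis limits phosphate uptake, rose 4.33-fold in N deficiency (adjusted p = 8e-06). Of these 5, 2 rose and 1 fell in N deficiency, 1 rose and 1 fell in P deficiency, and 1 rose and 0 fell in K deficiency (0 lower at an unadjusted p under 0.05 in limma and 0 by voom), and all of these counts but that of LOC100502171 in N deficiency were lost without some libraries.

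The nearest RefSeq genes on the chromosome were looked up for each of the 3 genes. Beside cl35113_1, LOC100280292 rose 5.63-fold in P deficiency (limma adjusted p = 0.00242), or 11.1-fold without control replicate 4_6, where cl35113_1 was lowest, and LOC100279732 passed in no comparison. Beside LOC100501893, LOC100192554 passed in no comparison, and LOC100283366, described as protein HOTHEAD, fell 2.83-fold in N deficiency (adjusted p = 0.044). Beside LOC100191817, LOC100384443 rose 2.23-fold in K deficiency (adjusted p = 0.0399), and the neighbour on the other side was not analysed here. Neighbours come from the RefSeq assembly Zm-B73-REFERENCE-NAM-5.0, which may not be the build the authors used.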

How the data were processed

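The 3 genes, the 7 gene lists and the marker lists were chosen with earlier results of these data known, and the lists were completed after the gene names in the tables had been seen. Per the file headers, the deposited per-library values are FPKM, given by the authors in 3 tables of 1 deficiency against the same control, whose control columns were identical. The deposited group means are a signal, normalized counts averaged over 3 libraries by the authors, whose fold change is the ratio of these means, with its log2 beside it, and whose p-value and adjusted p come from the authors' own comparison. Not given in the sources used here are the aligner, the genome build, the annotation and the strand setting. No per-library column was left unmatched (0 columns), and 87.4% of gene identifiers were in the RefSeq table, which served for synonyms and neighbours only.

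Genes that reached 0.5 FPKM in 3 or more of the 12 libraries were tested with limma 3.58.1 in R 4.3.3, with an intensity trend, on log2(FPKM + 1), with group as the only term, in 6 comparisons with Benjamini-Hochberg adjustment at 0.05. A fold is a ratio of mean FPKM. Differences on the log2(FPKM + 1) scale understate the change of low genes. A test for read counts had been planned in case counts were deposited and was not used.

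Whole reads were worked back for each library out of the deposited group means, for 99.78% to 100% of genes with a mean above 0, and gave depth and a voom alternative. An FPKM of 0 can be a failed estimate: 2 to 13 genes per library were at 0 with at least 50 reads. Named genes are the 3 genes, all other tested SPX and glycerol-3-phosphate transporter genes, per list those with the smallest p in each deficiency (the text gives some), and the 5 closest in pattern. Neighbours and pht1-6 fall outside this rule. The fits were tested on simulated data. Python 3.11.15, pandas 2.3.3, numpy 2.4.6 and matplotlib 3.10.9 were used. Alternatives were other scaling, pseudocounts of 0.1 and 10, other filters, fits of 6 libraries, a replicate block, robust weights, voom, the authors' deposited adjusted p and leaving out each library.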

Additional observations from a re-analysis of the deposited data

Results flagged for a closer look

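LOC100501893 was flagged because its K deficiency libraries were all above the control mean, with a ratio of means of 1.22, while its N and P deficiency libraries were all below it. This difference between deficiencies was not tested, since the gene was chosen for its response, and its K deficiency and control libraries overlapped.

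Other phosphate genes were flagged because they fell in N deficiency and rose in another deficiency, with the difference itself passing in limma. The log2 difference of N against P deficiency was -5.93 for LOC100383973 (a galactolipid synthase, adjusted p = 4.72e-07), -5.63 for LOC100383215 (a glycerophosphodiester phosphodiesterase, adjusted p = 6.6e-08), -4.69 for LOC732717 and -3.45 for LOC732718 (inorganic phosphate transporters), -3.94 for LOC100191201 (a glycerophosphodiester phosphodiesterase), -2.52 for LOC100285275 (an acid phosphatase relative) and -2.14 for LOC100282424 (UDP-sulfoquinovose synthase, adjusted p = 5.75e-05). Of N against K deficiency it was -5.05 for LOC100383973, -4.64 for LOC732717, -2.59 for LOC732718 and -1.87 for LOC100282424. The rise of these last genes in K deficiency was lost without control replicate 1_3 and without K deficiency replicate 1_3. cl35113_1 and LOC100191817 were below the control in all 3 deficiencies.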

How the results depend on the processing

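No direction of the 3 genes reversed under any alternative run. The sizes of their log2 differences from the control depend on the pseudocount. For cl35113_1 they were -1.47, -1.20 and -1.73 in K, N and P deficiency, became -2.50, -1.85 and -3.27 with a pseudocount of 0.1, -0.33, -0.29 and -0.36 with 10, and -2.74, -2.15 and -3.98 with voom on recovered reads. For LOC100191817 they were -2.11, -2.93 and -2.74, became -2.77, -4.85 and -4.29 with 0.1, -0.71, -0.835 and -0.81 with 10, and -2.68, -5.17 and -4.81 with voom. For LOC100501893 the N deficiency value of -3.93 became -4.60, -1.98 and -4.70 in the same order. Counts of the 81 phosphate genes also moved. In K deficiency 5 rose in a fit of 6 libraries and 4 in the authors' deposited table, and 5 fell with voom. In N deficiency 5 rose in a fit of 6 libraries and 4 in the authors' deposited table. In P deficiency 5 fell in each of these. In N against P deficiency 7 were higher and 24 lower, and 4 were higher in a fit of 6 libraries. In P against K deficiency 4 were higher and 5 lower; 8 were higher with median-ratio scaling, 7 with a pseudocount of 10, 11 with voom and 2 without a filter, and 3 were lower without a filter and 1 in a fit of 6 libraries. In N against K deficiency 5 were higher and 25 lower. With a library left out, 0 to 11 rose and 1 to 3 fell in K deficiency, 2 to 9 and 16 to 20 in N deficiency, and 16 to 27 and 4 to 7 in P deficiency. For N against P deficiency the ranges were 2 to 6 higher and 19 to 23 lower, for N against K deficiency 2 to 4 and 17 to 22, and for P against K deficiency 1 to 6 and 1 to 5. The cause was not tested. Of the 15 genes of similar pattern, 2 were found again by Spearman's rho, 7 with a pseudocount of 0.1 and 0 after group means were removed. Over single genes named, 2373 values kept their side of the threshold or their size, 179 lost a call, 27 gained one and 22 moved. A possible pairing by replicate label was examined: r exceeded 0.1 in 10 of 18 like-numbered pairs (range -0.388 to 0.334) and was highest within the own label for 4 of 12 libraries, and the labels were not taken as pairs. With a replicate block 2 genes were higher in P against K deficiency, and the other counts stayed within 1.5 times. A search of promoters for the motif bound by phosphate starvation regulators was not run, since no promoter sequence was used here. In all, 26 reads of LOC100191817 were counted under N deficiency and 37 under P deficiency, which limits the precision of its folds.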
